A study of Danio rerio with 2 samples.

Results

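The receptors and co-receptors of vascular endothelial growth factor (VEGF) were followed in single zebrafish cells. They were chosen by name as kdrl, kdr, flt1, flt4, nrp1a, nrp1b and plxnd1. Of these 7 genes, 6 were matched to an identifier each among the 27931 genes measured: kdrl (ENSDARG00000015815), kdr (ENSDARG00000017321), flt1 (ENSDARG00000019371), flt4 (ENSDARG00000015717), nrp1b (ENSDARG00000027290) and plxnd1 (ENSDARG00000086057). No identifier was matched to nrp1a, which is not analysed here.

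VEGF ligands are secreted proteins that bind receptor tyrosine kinases on endothelial cells. Kdrl and Kdr are the zebrafish receptors of the VEGFR2 type, which carry most of the signal for endothelial growth and migration, whereas Flt1 (VEGFR1 type) binds ligand tightly, signals weakly and serves in part as a secreted decoy. Flt4 (VEGFR3 type) receives Vegfc and is known for its part in venous and lymphatic vessels. Neuropilins such as Nrp1b hold ligand beside these receptors, and Plxnd1 is the endothelial receptor of class 3 semaphorins, which guide growing vessels.

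Cells came from 2 samples of Tg(-2.3 etv2:GFP)zf372 embryos, 48 cells at the 20 somite stage and 48 cells at the 15-18 somite stage. Both samples carried the same reporter, in which a promoter fragment of etv2 drives GFP, and both were untreated, grown at 28.5 °C per the labels, pooled over embryos and sorted for GFP, so that cells with little GFP could have been missed. Polyadenylated RNA of each captured cell was sequenced, and the study divided the 96 cells into 8 populations: 4 endothelial ones, named endothelial progenitor cells (EPC, population 4), venous (5), arterial (6) and EC2 (7), and erythrocytes (1), epithelial cells (2), tailbud cells (3) and macrophages (8). EPC numbered 14 cells (6 at 20 somites and 8 at 15-18 somites), arterial cells 13 (3 and 10), EC2 cells 7 (5 and 2) and venous cells 8 (4 and 4), which gives 42 endothelial cells. The labels call all cells vascular endothelial, but 54 of the 96 were placed outside the endothelial populations.

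Each stage is 1 sample, so there is no replicate of a stage, cells are not replicates, and the stage cannot be told apart from the day and chip of capture. The populations were made by clustering these same cells on their genes. For both reasons the differences below describe the cells at hand and carry no p-value. Values are transcripts per 1000000 transcripts (TPM), which are per transcript length and keep no read depth, so a value of 0 does not show absence. Detection in a cell means a value above 1 TPM, and the endothelial cells had between 4329 and 7337 genes detected, with a median of 5393.5 at 20 somites and 5265.5 at 15-18 somites. The label endothelial was described with genes other than the receptors, which is no independent check because the populations were clustered on these same cells. Of 6 pan-endothelial markers that were matched (cdh5, egfl7, sox7, ecscr, erg and tie1), every cell of populations 4 to 7 had at least 4. The junctional cadherin cdh5 was detected in 42 of 42 of them and in 3 of the 26 cells of populations 1, 2 and 8. However, ecscr was detected in only 26 and erg in 31 of the 42 endothelial cells. In the 26 cells of populations 1, 2 and 8, egfl7 was detected in 24 and sox7 in 9. The list as a whole therefore separates the populations less well than cdh5 or tie1 (40 of 42 against 0 of 26).

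All 6 genes were higher in endothelial cells than in erythrocytes, epithelial cells and macrophages, and kdrl was the most general of them. The gene kdrl was detected in 42 of 42 endothelial cells (100%, exact Clopper-Pearson 95% interval 91.6 to 100). Detection was also frequent for nrp1b, in 40 cells (95.2%, 83.8 to 99.4), for kdr in 37 (88.1%, 74.4 to 96.0), for flt4 in 36 (85.7%, 71.5 to 94.6) and for flt1 in 35 (83.3%, 68.6 to 93.0). Only plxnd1 was detected in a minority, 15 cells (35.7%, 21.6 to 52.0). These intervals cover the counting of cells only.

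In the 26 cells of populations 1, 2 and 8, which had a median of 5872.5 genes detected, kdr, flt1 and plxnd1 were detected in none, which allows a share of up to 11.5% for each. The highest value there was 24.0 TPM for kdrl, in 1 of 2 cells with a detected level, and 3.28 TPM for flt4, in the only such cell. A further 15 of the 26 cells had kdrl values above 0 but not above 1 TPM. Such traces were in 9 cells for kdr, 8 for flt4, 9 for nrp1b and 1 each for flt1 and plxnd1. The source of these traces was not tested. Detection above 1 TPM was more frequent for nrp1b, in 8 of the 26 cells (30.8%, 14.3 to 51.8), with values up to 21.5 TPM. Neuropilins also bind semaphorins and are not limited to endothelium.

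The level of a gene is given below as the mean over cells of log2(TPM + 1), taken in each population and stage and averaged with equal weight. On this scale kdrl was higher by 7.60 in endothelial populations than in populations 1, 2 and 8, where it was at 0.40, and this difference ranked 14 among 15147 genes. The other differences were 5.97 for flt1 (rank 50), 5.93 for nrp1b (6.87 against 0.94), 5.89 for kdr and 5.12 for flt4 (rank 91). The smallest was that of plxnd1, at 1.52 (rank 1108). Thus 6 of 6 genes were higher by more than 1, whereas 12.9% of all genes were. Since the populations rest on such genes, this count describes how the cells were divided.

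**Figure D1:**
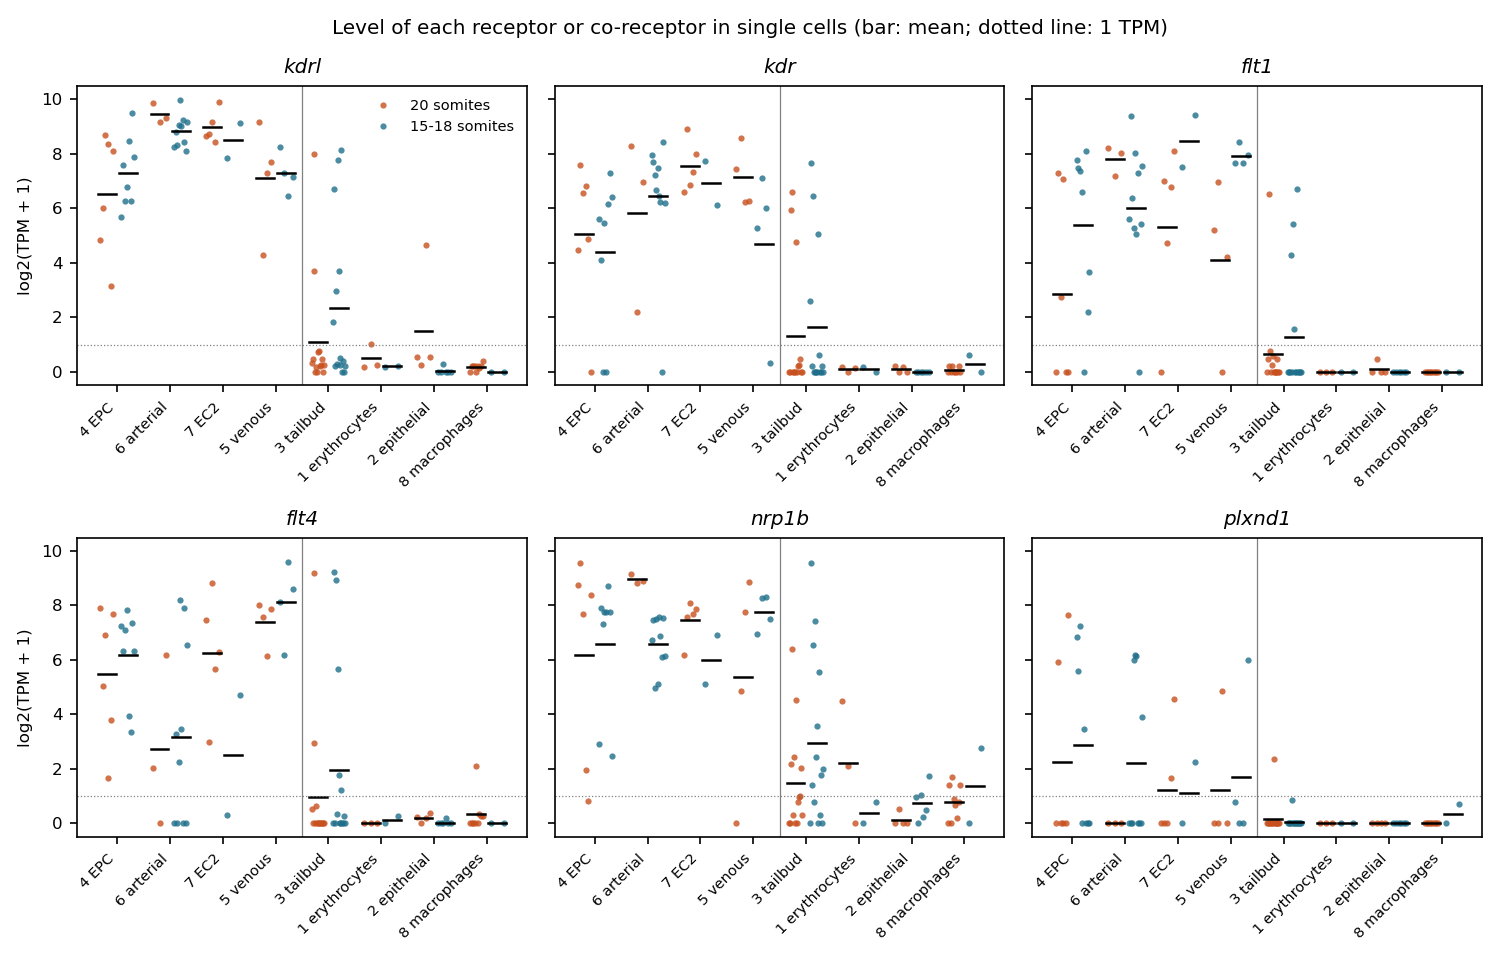
Level of each receptor or co-receptor, log2(TPM + 1), in every one of the 96 cells (points), by population and by stage (20 somites at left in each pair, 15-18 somites at right), with the mean as a bar and 1 TPM as a dotted line. Endothelial populations lie left of the vertical line: kdrl was above 1 TPM in 42 of 42 of their cells, flt4 was at 0 in 5 of 13 arterial cells, and plxnd1 was detected in 15 of 42.

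Among the endothelial populations, kdrl was highest in arterial and EC2 cells. Its values ran over 7.83, 151 and 722 TPM in EPC (lowest, median and highest cell), 273, 537 and 1019 TPM in arterial cells, 231, 427 and 954 TPM in EC2 cells, and 18.6, 158 and 579 TPM in venous cells. All 13 arterial cells were above the venous median, and 6 of them were above the highest venous cell. Of the 14 EPC, 8 were below the lowest arterial or EC2 cell. The levels in order were 9.15 in arterial cells, 8.74 in EC2 cells, 7.20 in venous cells and 6.92 in EPC. Arterial and EC2 cells overlapped over nearly their whole range, as did venous cells and EPC. Cells of all neighbours in this order overlapped.

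The second VEGFR2-type receptor, kdr, was less abundant than kdrl in 37 of 42 endothelial cells. It ran over 0, 45.3 and 190 TPM in EPC, 0, 124 and 350 TPM in arterial cells, 68.8, 163 and 480 TPM in EC2 cells, and 0.245, 75.7 and 386 TPM in venous cells. Its levels were 7.23 in EC2 cells, 6.13 in arterial cells, 5.91 in venous cells and 4.72 in EPC. The ranges of all 4 populations overlapped. The 5 cells without detected kdr were 3 EPC, 1 arterial and 1 venous cell, and all of them had kdrl and flt4.

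The decoy-type receptor flt1 varied widely within every endothelial population. It ran over 0, 54.1 and 273 TPM in EPC, 0, 144 and 665 TPM in arterial cells, 0, 128 and 691 TPM in EC2 cells, and 0, 163 and 350 TPM in venous cells. Every population therefore held cells at 0 and cells above 100 TPM. The levels were 6.91 in arterial cells, 6.90 in EC2 cells, 6.01 in venous cells and 4.13 in EPC, where 10 of 14 cells had flt1 detected. Values are summed per gene, so the membrane-bound and secreted forms of flt1 are not separated.

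The Vegfc receptor flt4 had nearly the opposite order to kdrl. It ran over 2.20, 99.4 and 236 TPM in EPC, 0, 3.83 and 295 TPM in arterial cells, 0.235, 49.8 and 447 TPM in EC2 cells, and 70.1, 246 and 764 TPM in venous cells. The levels were 7.76 in venous cells, 5.84 in EPC, 4.38 in EC2 cells and 2.95 in arterial cells. It was detected in 14 of 14 EPC and 8 of 8 venous cells, and in 6 of 7 EC2 and 8 of 13 arterial cells. The study used flt4 to name the venous population, so its high level there is what the name rests on.

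Of the co-receptors, nrp1b was abundant in all endothelial populations. It ran over 0.748, 215 and 748 TPM in EPC, 29.9, 176 and 563 TPM in arterial cells, 33.4, 190 and 272 TPM in EC2 cells, and 0, 199 and 469 TPM in venous cells. The medians lay close together and the ranges overlapped, with levels of 7.78 in arterial cells, 6.75 in EC2 cells, 6.57 in venous cells and 6.38 in EPC. By contrast, plxnd1 was at 0 in 26 of 42 endothelial cells. It was detected in 6 of 14 EPC, 4 of 13 arterial, 3 of 7 EC2 and 2 of 8 venous cells, and its highest value, 202 TPM, was in an EPC.

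EPC are the cells that the study names progenitors, and kdrl, kdr and flt1 were lower in them than in populations 5 to 7. The median of the 28 cells of populations 5 to 7 was above 13 of the 14 EPC for kdrl, above 12 of 14 for kdr and above 9 of 14 for flt1. The level of kdrl was lower by 1.45 (6.92 in EPC and 8.36 in populations 5 to 7), that of kdr by 1.71 (4.72 and 6.42) and that of flt1 by 2.48 (4.13 and 6.61). The level of flt4 was higher in EPC by 0.81 (5.84 and 5.03), that of nrp1b lower by 0.65, and that of plxnd1 higher by 1.33 (2.58 and 1.25). Taken alone, venous cells were close to EPC in kdrl (7.20) and above them in flt4 (7.76), kdr (5.91) and flt1 (6.01). The kdrl and flt4 differences thus depend on arterial and EC2 cells being in the comparison. Therefore 3 of the 6 genes were lower by more than 1 (12.5% of 11521 genes were) and 1 was higher by more than 1 (12.5% of all genes, and 25.0% in either direction). The direction of all 6 differences was the same in each stage alone, although kdrl was lower by only 0.91 at 15-18 somites and flt4 was higher by 0.04 at 20 somites and by 1.58 at 15-18 somites. The plxnd1 difference was 0.79 without the EPC of 202 TPM, and with log2 of mean TPM values it was 2.81, that of nrp1b 0.34, that of flt1 -1.08, that of kdr -1.14 and that of kdrl -0.90.

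EPC were also lower in the pan-endothelial markers, whose mean level was 6.77 in EPC, 8.37 in arterial cells, 8.33 in EC2 cells and 8.37 in venous cells. Every EPC had between 4 and 6 of the 6 markers, and EPC had a median of 5390.5 genes detected, against 5355 in populations 5 to 7. The tyrosine kinase tie1, an endothelial receptor of the angiopoietin system and itself among the 6 markers, was lower in EPC by 2.17. That is more than the difference of kdrl or kdr and less than that of flt1. What part the general endothelial level has in the lower receptors was not tested.

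The comparison of arterial with venous cells asks how receptors divide between the populations that the study gave these names. Embryos were dissociated before sorting, so the vessel and body region of a cell are not known. The largest difference was that of flt4, which was among the genes by which the study named the venous population. Its values in the 13 arterial cells were 0 in 5 cells, between 3.08 and 10.1 TPM in 4 cells, and 71.3, 91.4, 239 and 295 TPM in the remaining 4. The 8 venous cells ran over 70.1, 246 and 764 TPM. Thus 9 of 13 arterial cells were below every venous cell, whereas 4 had levels within the venous range. With levels of 2.95 and 7.76 the difference was -4.81, rank 11514 of 11521 genes from the top, and it was -4.67 at 20 somites and -4.96 at 15-18 somites.

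In the same comparison kdrl was higher in arterial cells by 1.95 (9.15 and 7.20), and by 2.34 at 20 somites and 1.55 at 15-18 somites. The level of nrp1b was higher by 1.21 (7.78 and 6.57), but this rested on few cells: it was 3.58 at 20 somites and -1.16 at 15-18 somites, and 0.32 when the single venous cell with nrp1b at 0 was left out. The differences of flt1 (0.90), kdr (0.21) and plxnd1 (-0.34) were not past 1. For flt1 the difference was 0.21 without the venous cell at 0 TPM and 1.37 without the venous cell of 124 TPM, and for kdr it was -0.51 without the venous cell of 0.245 TPM and 1.12 without the arterial cell of 3.61 TPM. In total 2 of 6 genes were higher by more than 1 (16.9% of all genes) and 1 was lower (17.4% of all genes, and 34.3% in either direction), so the number of genes past 1 was not far from the background. The genes flt4 and kdrl were the ones that kept both their direction and their side of 1 in each stage and when any single cell was left out. For flt4 this is no independent support, since the venous population was named with it from these same cells. For kdrl it is none either, since the populations were clustered on these same cells and stayed fixed when a cell was left out.

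Because kdrl and flt4 run in opposite directions, their balance within single cells was examined. In arterial cells kdrl made up 61.0% of the summed TPM of the 4 receptors on average and flt4 5.93%, and in venous cells kdrl made up 29.2% and flt4 35.0%. EPC had 39.6% and 25.2%, and EC2 cells 48.9% and 11.4%. The venous population was named with flt4 among other genes, and flt4 is part of the sum. A higher flt4 thus lowers the share of kdrl. These shares in part repeat the flt4 difference and are no independent support for a balance of kdrl and flt4. The value of flt4 was above that of kdrl in 0 of 13 arterial and 0 of 7 EC2 cells, which allows shares of up to 23.1% and 42.9%, and in 5 of 14 EPC and 4 of 8 venous cells. In arterial cells kdrl was the most abundant receptor in 11 of 13, and in venous cells kdrl led in 3 and flt4 in 3. The summed TPM itself overlapped between the populations, with medians of 455 in EPC, 730 in arterial cells, 1042 in EC2 cells and 745 in venous cells. The plot of stacked receptor values shows the same cells one by one.

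**Figure D2:**
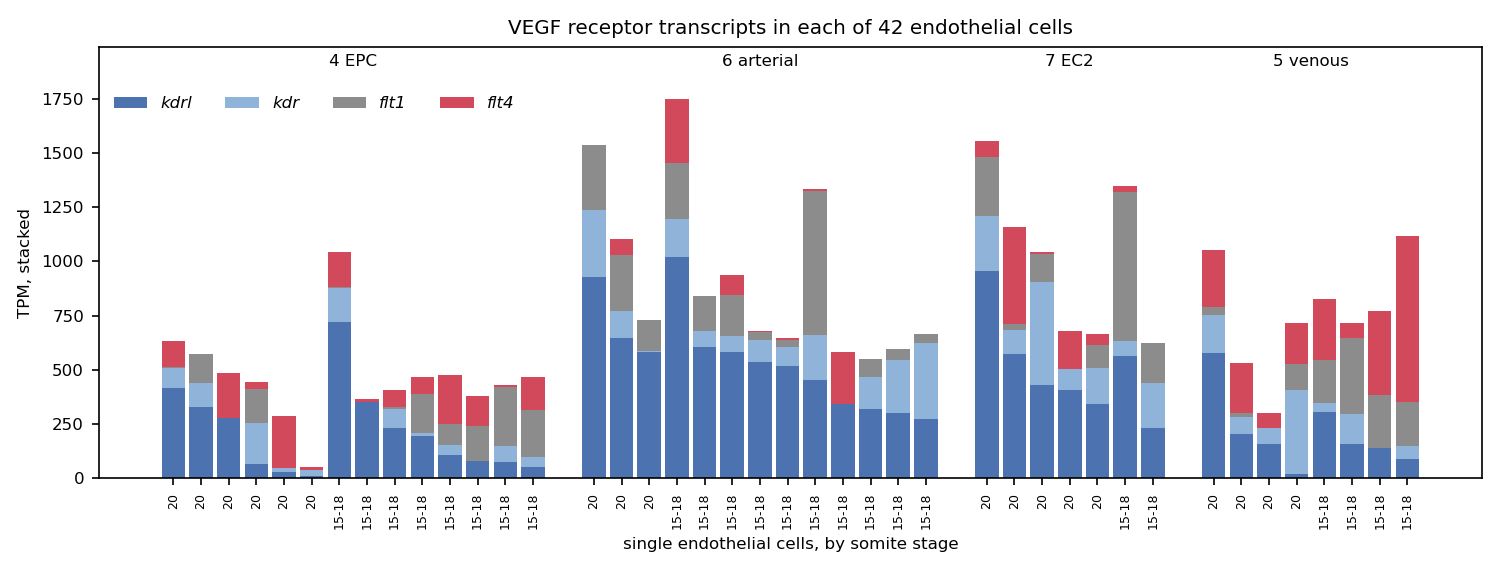
TPM of kdrl, kdr, flt1 and flt4 stacked for each of the 42 endothelial cells (bars), grouped by population and labelled by somite stage. The flt4 segment is absent in 5 of 13 arterial cells and present in 8 of 8 venous cells, and the summed height ranges from 49.0 to 1750 TPM.

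Most endothelial cells had transcripts of all 4 receptors. All 4 were detected in 27 of 42 cells (64.3%, 48.0 to 78.4), 3 were detected in 12 cells and 2 in 3 cells, and no endothelial cell had fewer. Cells with all 4 numbered 9 of 14 EPC, 7 of 13 arterial, 5 of 7 EC2 and 6 of 8 venous cells. None of the 26 cells of populations 1, 2 and 8 had more than 1 receptor. The cells with all 4 receptors had a median of 5326 genes detected, and the other combinations had medians between 5210 and 6275 genes.

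The combinations were then counted by population. The set kdrl, kdr and flt1 without flt4 occurred in 6 cells, of which 5 were arterial and 1 was an EC2 cell. All 6 endothelial cells without flt4 therefore had both kdr and flt1. Over all 42 endothelial cells both kdr and flt1 were detected in 33 (78.6%), so this count is not read as a relation. The venous population was named with flt4 among other genes, so the populations of these 6 cells are no independent support for a difference. The set kdrl, kdr and flt4 without flt1 was found in 4 cells, kdrl and flt4 alone in 3 cells, and kdrl, flt1 and flt4 in 2 cells. Both kdr and flt4 were detected in 31 cells and at least 1 of them in all 42. Taken singly, kdr was detected in 37 and flt4 in 36 of the 42 cells, so these counts are not read as a relation. Above 10 TPM, all 4 receptors were together in 19 of 42 cells (45.2%), and flt4 was present in 71.4% of cells.

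Co-receptors were then set against the receptors. The 15 endothelial cells with plxnd1 all had kdrl, flt4 and nrp1b, which were detected in 42, 36 and 40 of the 42 endothelial cells. Of these 15 cells, 10 had all 6 genes. None of the 6 cells without flt4 had plxnd1, which allows a share of up to 50%, whereas 4 of the 5 cells without kdr did. The share with plxnd1 over all 42 cells was 35.7%, and these small counts are not read as a relation. Over the 42 cells the levels of kdr and plxnd1 had a Pearson r of -0.39, kdr and flt1 of 0.36, kdr and flt4 of -0.25 and kdrl and flt4 of -0.19. All other pairs of the 6 genes were between -0.20 and 0.22. These weak values describe cells of 2 chips and 4 populations and are not read as a relation. The number of genes detected per cell had an r between -0.20 and 0.12 with each of the 6 genes.

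**Figure D3:**
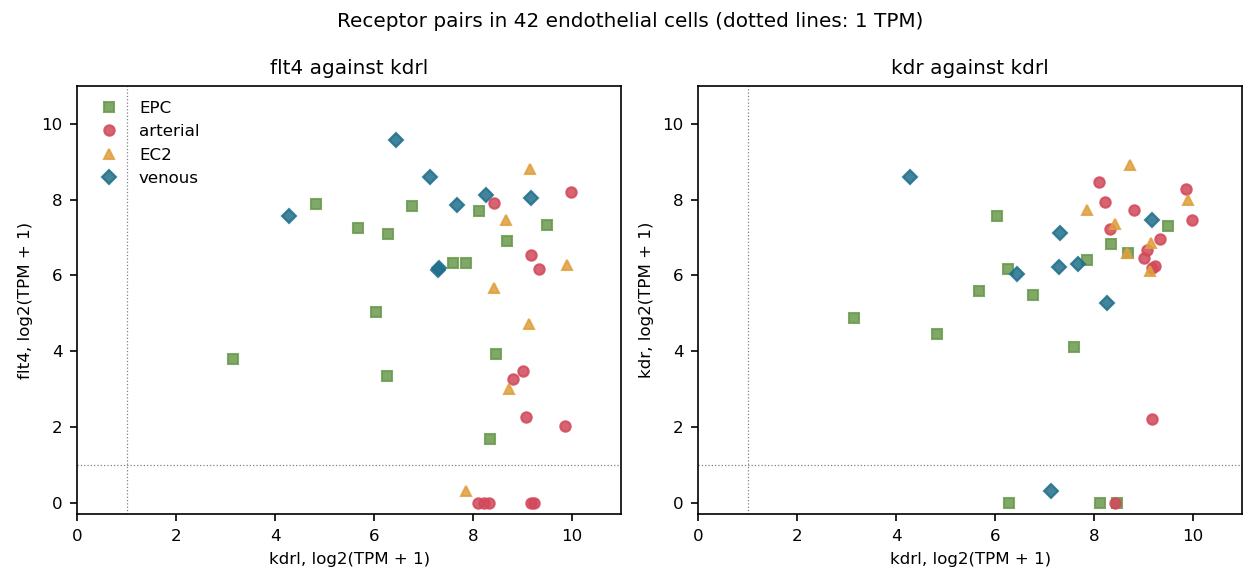
Levels of flt4 (left) and kdr (right) against that of kdrl, as log2(TPM + 1), in the 42 endothelial cells, with a point per cell marked by population and dotted lines at 1 TPM. The 8 venous cells were at 70.1 TPM or more in flt4, 6 of them were below every arterial cell in kdrl, and 37 of the 42 cells had more kdrl than kdr.

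The Notch ligand dll4, known for its arterial expression, was named for its cells shared with flt4. Both were detected in 28 of 42 endothelial cells, flt4 without dll4 in 8 (5 EPC, 1 arterial and 2 venous cells) and dll4 without flt4 in 6 (5 arterial cells and 1 EC2 cell), and every endothelial cell had at least 1 of them. Taken singly, flt4 was detected in 36 and dll4 in 34 of the 42 cells, so these counts are not read as a relation. In arterial cells 7 of 13 had both, and in venous cells 6 of 8. The study named the arterial population with dll4 among other genes, and the venous population with flt4, so these counts are no independent support for either name.

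The next comparison was that of the 20 somite with the 15-18 somite sample within populations 4 to 7. The largest difference was that of flt1, which was at 5.02 at 20 somites and at 6.96 at 15-18 somites, a difference of -1.93. It was detected in 13 of 18 cells at 20 somites and in 22 of 24 at 15-18 somites. The other genes were nearer to each other: kdr differed by 0.78 (6.39 at 20 somites and 5.61 at 15-18 somites), flt4 by 0.47, nrp1b by 0.26, kdrl by 0.04 and plxnd1 by -0.80 (1.18 and 1.99). Hence 0 of 6 genes were higher by more than 1 at 20 somites (8.13% of all genes were) and 1 was lower (13.0% of all genes, and 21.1% in either direction). The small differences of kdrl, flt4 and nrp1b changed sign when 1 cell was left out (-0.13, -0.08 and -0.03). Leaving out 1 cell also took the difference of kdr up to 1.23, that of flt4 up to 1.03 and that of plxnd1 to -1.11.

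The flt1 difference did not have the same direction in all populations. In venous cells flt1 had 0, 17.4, 36.4 and 124 TPM at 20 somites, against 202, 202, 245 and 350 TPM at 15-18 somites. The stages did not overlap in these 8 cells, and the levels were 4.10 and 7.93. In EPC, flt1 was detected in 3 of 6 cells at 20 somites (lowest 0, median 2.84 and highest 158 TPM) and in 7 of 8 at 15-18 somites (0, 131 and 273 TPM), and the level was lower by 2.55 at 20 somites. In the 5 EC2 cells at 20 somites flt1 had 0, 25.9, 109, 128 and 272 TPM, against 184 and 691 TPM in the 2 cells at 15-18 somites. The 3 arterial cells at 20 somites had 144, 262 and 298 TPM, against a median of 64.6 TPM and a range of 0 to 665 TPM in the 10 cells at 15-18 somites, and here the level was higher by 1.81 at 20 somites.

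A change of direction between populations was also present for nrp1b. The 3 arterial cells at 20 somites had 457, 471 and 563 TPM, all above the 10 arterial cells at 15-18 somites, which had a median of 110 TPM and a highest value of 189 TPM. The level was 8.95 at 20 somites and 6.60 at 15-18 somites. In venous cells nrp1b had 0, 27.7, 216 and 469 TPM at 20 somites, against 122, 182, 310 and 318 TPM at 15-18 somites, so the stages overlapped, and the level was lower by 2.39 at 20 somites. The kdr level of venous cells was higher by 2.46 at 20 somites (74.1, 77.3, 174 and 386 TPM, against 0.245, 37.6, 64.3 and 138 TPM). For flt4, 4 of 5 EC2 cells at 20 somites were above both EC2 cells at 15-18 somites, which had 0.235 and 25.2 TPM. The flt4 level was higher by 3.73 at 20 somites in EC2, and differed by -0.68 in EPC, -0.73 in venous cells and -0.43 in arterial cells, so its difference of 0.47 over the 4 populations came from EC2. The kdrl level differed by less than 0.8 between the stages in every endothelial population.

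**Figure D4:**
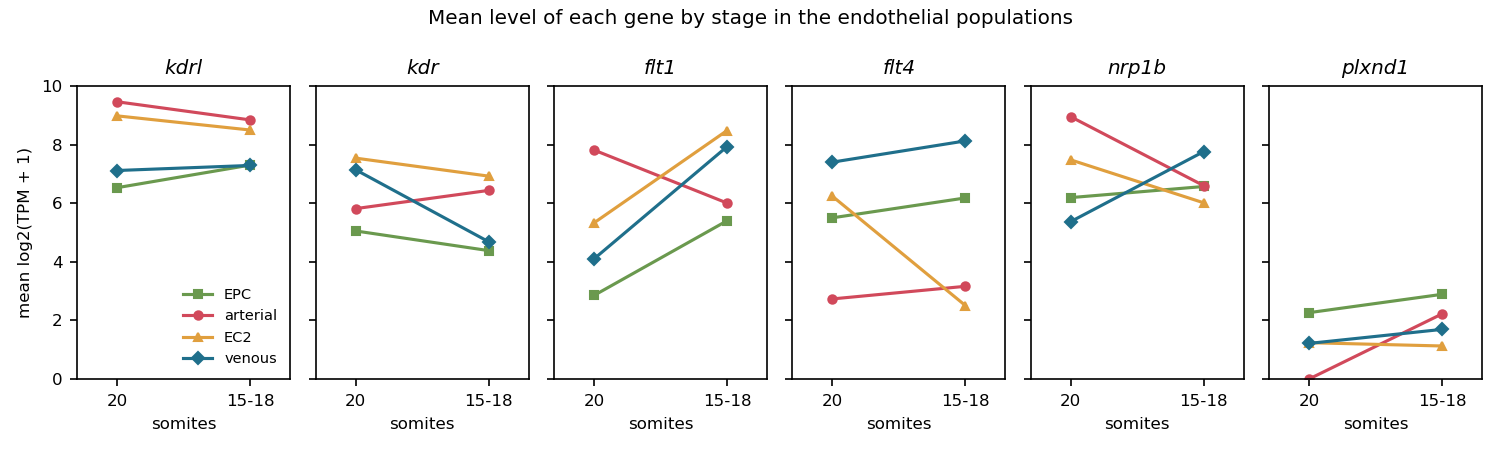
Mean level, log2(TPM + 1), of each gene in the 4 endothelial populations at 20 somites (left in each panel) and at 15-18 somites (right), with lines joining the same population. In flt1 the arterial line runs against the other 3 populations, with differences of 1.81 in arterial cells and -2.55, -3.83 and -3.15 in EPC, venous and EC2 cells; each point is a mean over 2 to 10 cells of 1 sample.

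Population 3, which the study calls tailbud, was kept apart because its identity is mixed. Its cells were mixed in receptors as well. None of the 4 receptors was detected in 18 of its 28 cells, and all 4 were detected in 2. The levels of kdrl (1.73), kdr (1.47), flt1 (0.97) and flt4 (1.46) lay between those of endothelial cells and of populations 1, 2 and 8. In 6 cells (21.4%, 8.30 to 41.0; 2 at 20 somites and 4 at 15-18 somites) at least 2 receptors were above 10 TPM. Their values were not low: the highest was 281 TPM for kdrl, 204 TPM for kdr, 105 TPM for flt1 and 601 TPM for flt4. These 6 cells had between 3 and 6 of the 6 pan-endothelial markers (median 5), and the other 22 cells had between 1 and 5 (median 2). They had a median of 3236.5 genes detected, against 4187.5 in the other 22 cells and 5356.5 in endothelial cells. None of these 6 cells had any of the 4 tailbud markers that were matched. Most of the other 22 cells also had none, and the rest had 1 or 4. Of other cell types the 6 cells had 0 to 4 of 6 erythrocyte, 0 to 4 of 5 macrophage and 1 to 4 of 5 epidermal markers. The part of gene number or of other cell types in their placement was not tested.

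The rest of the pathway was described from lists of genes chosen by function, with earlier results of these data known. The populations were made from these same cells, so the counts of list genes below describe them and are no independent support. Of 8 VEGF ligands, 4 were matched, and 2 of them (vegfba and vegfbb) were detected in no cell. The ligand of Flt4, vegfc, was detected in 18 of 42 endothelial cells and in 0 of the 26 cells of populations 1, 2 and 8. Its level was 4.81 in arterial cells (9 of 13 cells), 4.15 in EC2 cells (5 of 7), 1.62 in EPC (4 of 14) and 0 in venous cells (0 of 8, which allows a share of up to 37.5%). The ligand and its receptor were thus highest in different populations. Of the 18 endothelial cells with vegfc, 15 also had flt4 (6 arterial, 5 EC2 and 4 EPC). Over all endothelial cells flt4 was detected in 36 of 42 (85.7%), so this count is not read as a relation. The related ligand vegfd was detected in 23 endothelial cells, at 1.76 in endothelial populations and 1.01 in populations 1, 2 and 8.

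Of 22 other neuropilins, plexins and class 3 semaphorins, 14 were matched and 8 were detected in at least 5 cells. Among these 8, 1 was higher in endothelial cells by more than 1 (nrp2b) and 1 lower (sema3d, by 1.12), against 12.9% and 15.3% of all genes, so these counts were near the background. The gene nrp2b encodes a neuropilin whose mouse and human counterpart is a co-receptor of VEGFR3, and like flt4 it was lower in arterial than in venous cells. Its level was 0.33 in arterial cells (2 of 13 cells) and 5.51 in venous cells (6 of 8), a difference of -5.19, and it was lower by 1.86 at 20 somites than at 15-18 somites. All 17 endothelial cells with nrp2b also had flt4, and 19 had flt4 without nrp2b. Because flt4 was detected in 36 of all 42 endothelial cells (85.7%), these counts are not read as a relation. The plexin plxnb3 was likewise lower in arterial (1.81) than in venous cells (4.74), and was lower by 3.09 in EPC than in populations 5 to 7. In EPC the plexin plxna3 was higher by 1.02 and plxna2 by 0.98. The level of plxna2 was 0.74 in endothelial populations and 0.10 in populations 1, 2 and 8. Only 4 genes of this list could be compared among endothelial cells. By more than 1, 1 was higher and 1 lower in EPC (12.5% of all genes each). Arterial minus venous, 0 were higher and 2 lower (16.9% and 17.4% of all genes). At 20 somites 0 were higher and 1 lower (8.13% and 13.0% of all genes).

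Of 22 genes of receptor signalling and trafficking, 17 were matched and 15 were detected in at least 5 cells. Higher by more than 1 in endothelial cells were 9 of the 15 (12.9% of all genes), and none was lower (15.3% of all genes), with a median difference of 1.14 against 0.01 over all genes. The highest levels were those of dusp5, a dual-specificity phosphatase (11.84 in endothelial populations and 6.39 in populations 1, 2 and 8), of rasip1, a Ras-interacting protein needed for vessel lumens (6.61 and 0.08), and of spry4, a feedback inhibitor of receptor tyrosine kinases (6.44 and 2.18). The phospholipase plcg1, which acts directly downstream of VEGF receptors, was detected in 38 of 42 endothelial cells, at 4.75 in endothelial populations and 0.79 in populations 1, 2 and 8. It differed by -0.05 between arterial and venous cells. In EPC, rasip1 was lower by 3.89, dusp5 by 1.15 and plcg1 by 1.05, and the adaptor gene shc1 was higher by 1.63. Thus 1 of 14 genes was higher and 3 lower by more than 1 (12.5% of all genes each). The other 10 were not past 1, and the median difference was -0.11. Arterial minus venous, 3 of the 14 genes of this list that could be compared were higher and 3 lower by more than 1 (16.9% and 17.4% of all genes were), which was near the background. Among them spry4 was higher by 2.02. At 20 somites 0 were higher and 4 lower by more than 1 than at 15-18 somites (8.13% and 13.0% of all genes were). Among the lower genes were ccbe1 (by 1.62), shc1 (by 1.60) and spry4 (by 1.52). The product of ccbe1 is needed for the processing of Vegfc. The gene was detected in only 5 of 42 endothelial cells, so its difference rests on few cells.

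Of 11 other endothelial receptor tyrosine kinases and their ligands, 5 were matched and 3 were detected in at least 5 cells. All 3 were higher in endothelial populations by more than 1 (12.9% of all genes were): tie1 (7.59 against 0.24 in populations 1, 2 and 8), tek, which encodes the angiopoietin receptor (4.55 and 0.26), and efnb2a, an arterial ephrin (3.74 and 0.90). Between arterial and venous cells, tie1 differed by 0.02, tek was lower in arterial cells (3.30 and 6.09) and efnb2a higher (6.25 and 1.72). The gene efnb2a was among those by which the study named the arterial population, so its high level there is what the name rests on. All 3 were lower in EPC by more than 1 (12.5% of all genes were).

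Lastly, the genes whose levels most resembled each receptor over the 42 endothelial cells were listed by Pearson r among 8232 other genes detected in at least 10 of these cells. The highest value was that of adprhl1 with kdr, at 0.79 (Spearman rho 0.85), and it was 0.79 at 20 somites and 0.81 at 15-18 somites. The next genes for kdr were creb3l3a (0.55) and EPHA6 (0.53). For kdrl they were emilin2a (0.69), IQGAP2 (0.67) and RBPMS2 (0.65). For flt1 they were UBE2E3 (0.63), dll4 (0.59) and csnk2a1 (0.50), and for flt4 DERL1 (0.57), myo1c (0.54) and NCBP2L (0.53). With flt4 the Spearman rho of DERL1, myo1c and NCBP2L was 0.37, 0.40 and 0.52, and their r at 20 somites was 0.42, 0.34 and 0.26.

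Of the co-receptors, nrp1b was most like pfn2b (0.59), SCAMP2 (0.59) and FLI1 (0.56), but for pfn2b the Spearman rho was 0.10 and r was 0.82 at 20 somites and -0.10 at 15-18 somites. Likewise, r for FLI1 was 0.80 at 20 somites and 0.03 at 15-18 somites. The genes most like plxnd1 were CDR2L (0.60), SAMTOR (0.53) and tenm3 (0.53), which were detected in 10, 12 and 14 of the 42 cells. For tenm3 the Spearman rho was 0.27. All genes named here as most alike have the highest of 8232 values for each gene, over cells that share 2 chips and 4 populations, and are given as a description.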

How the data were processed

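Per the methods of the study, reads of each of 96 cells were quantified with kallisto in AltAnalyze on the Zv9 assembly (Ensembl release 72); the kallisto version and read filters are not given in the sources used here. The authors deposited TPM per gene and cell, a log2 table of 13474 genes (checked to be log2(TPM + 1) of the TPM table, with gaps of at most 5e-11, and otherwise not used), and the population of each cell, made by iterative clustering in AltAnalyze. The deposited marker table was read for gene symbols alone. Its log2 population means and marker calls hold the authors' own comparison and were not used. No column was left out (0).

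Symbols came from that table and then from a table of gene names (20017 of 27931 identifiers, 71.7%). The 7 genes and the pathway lists were chosen with earlier results of these data known. Levels used a pseudocount of 1 TPM and equal weights for stages and populations, and log2 differences understate those of low genes. Comparisons used genes above 1 TPM in at least 5 of the cells compared. The stage difference was taken within each of populations 4 to 7 and averaged. Besides the 6 genes, the text names the 3 genes with the highest Pearson r for each, the 3 highest genes of each pathway list in endothelial cells, genes past 1 where 5 or fewer, and dll4. The counts of cells with vegfc or nrp2b beside flt4, and the summary of plcg1 over all comparisons, were added after their values were seen. Other genes of a list that matched are given as counts, and 1 gene that this rule names is not reported here. Counting intervals are Clopper-Pearson at 95%, and the limit for a count of 0 is 3 cells of the total. The calculation of the contrasts was tried on simulated data, with planted differences past the cut and noise far below the real spread of cells. Recovery was therefore given in advance, and the trial says nothing about calls that rest on few cells. No doublets were called. Python 3.11.15, numpy 2.4.6, pandas 2.3.3, scipy 1.17.1 and matplotlib 3.10.9 were used. Alternatives were another pseudocount, log2 of the mean TPM, cell weights, each stage alone, cells with at least 3000 genes, no filter, other detection limits and, chosen after seeing the data, leaving out each cell.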

Additional observations from a re-analysis of the deposited data

Results flagged for a closer look

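Between arterial and venous cells, 3 genes differed in opposite directions at the 2 stages. Arterial minus venous, kdr was -1.33 at 20 somites and 1.75 at 15-18 somites, flt1 was 3.72 and -1.93, and nrp1b was 3.58 and -1.16. At 20 somites these values rest on 3 arterial and 4 venous cells.

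The difference between 20 and 15-18 somites also had opposite directions among populations. For flt1 it was 1.81 in arterial cells, and -2.55 in EPC, -3.83 in venous and -3.15 in EC2 cells. For nrp1b it was 2.35 in arterial and 1.47 in EC2 cells and -2.39 in venous cells. None of these differences between groups was tested, since each stage is 1 sample.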

How the results depend on the processing

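The differences between endothelial cells and populations 1, 2 and 8, those of EPC (other than nrp1b, 0.34 with log2 of the mean TPM) and those of kdrl and flt4 between arterial and venous cells kept their direction under every alternative run. Arterial minus venous, nrp1b was reversed at 15-18 somites alone (-1.16), and the count of genes past 1 was 5 at 15-18 somites alone and 6 at 20 somites alone, against 3. The stage count was 3 with a pseudocount of 0.1 TPM and 2 with log2 of the mean TPM, against 1. With detection set above 10 TPM, 71.4% of endothelial cells had flt4 and 45.2% all 4 receptors. Leaving out each cell in turn, chosen after seeing the data, gave arterial minus venous 1.48 to 2.29 for kdrl and -5.67 to -4.13 for flt4, and a stage difference of -2.17 to -1.59 for flt1. The fewest genes were 4329 in endothelial cells and 3627 in populations 1, 2 and 8. The alternative of cells with at least 3000 genes therefore removed no cell compared, and its values were given in advance. Dropping the filter likewise changes only the share over all genes and not the difference of a gene. No paired analysis was possible because each stage is 1 sample, whose number only names it. Depth per cell cannot be read from TPM, which limits what a value of 0 shows.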
